A study of Mus musculus with 4 samples.

Results

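Transcripts that build, cut, cap and pull on actin filaments were examined in an anti-YTHDF2 RNA immunoprecipitation (RIP) from newborn mouse retina. YTHDF2 is a cytoplasmic reader protein that binds RNA carrying N6-methyladenosine (m6A), and in RIP-seq an antibody recovers the protein with the RNA it holds, which is then sequenced. The genes were listed by symbol, with earlier results of these data known: the beta- and gamma-actin genes, the proteins that hold or turn over actin monomers, the Arp2/3 complex, the WAVE complex and N-WASP, formins, Ena/VASP proteins and fascin, spectrins and ankyrins, the linkers Macf1 and Dst, and the myosins. This gave 71 of the 52550 genes in the deposited table. All 4 libraries came from retinas of wild-type C57BL/6 mice at postnatal day 0, dissociated with papain and given no treatment, and they formed 2 replicates, each with an input library of RNA taken before the pulldown and a RIP library. The 2 groups therefore share genotype, strain, tissue and age, and by their labels differ only in the pulldown. A pulldown with control IgG, named in the study's methods, was not analysed here, so that RNA retained without YTHDF2 cannot be told apart from RNA held by it. The study describes its replicates as biological and does not say how many animals each pooled.

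Actin filaments grow by adding monomers to one end and shrink by losing them from the other. Thymosins and profilins hold the free monomers, cofilins and destrin sever and depolymerise old filaments, the Arp2/3 complex starts a branch on the side of an existing filament when WAVE or N-WASP activates it, and formins and Ena/VASP proteins extend unbranched filaments. Spectrins and ankyrins tie actin to the membrane, and myosins are motors that walk on or contract the filaments. In young neurons this machinery shapes growth cones, axons and dendrites, which newborn retinal ganglion cells are extending.

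Fold changes are log2 ratios of RIP to input with their standard error (SE), fitted by edgeR's quasi-likelihood test on the counts after TMM scaling (TMM, the trimmed mean of M-values, sets libraries to the bulk of the tested genes). Enriched transcripts had a log2 fold change of 1 or more with an unadjusted p below 0.05, and depleted ones met the mirrored limits. Adjusted p is the Benjamini-Hochberg value over all 13632 tested genes. Levels per library are CPM after the same scaling, which offset differences in depth, and levels of different genes are compared only in the authors' FPKM, which divides by gene length. With 2 libraries in each group the smallest two-sided p of an exact permutation test of a single gene is 0.333, so that every call rests on the spread edgeR shares among genes.

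Sequences of some of the genes compared below are shown first. Actb and Actg1 encode cytoplasmic actins that are nearly identical as proteins, and their counts in the pulldown are compared below. The start of their coding sequences is shown as an example, and the untranslated regions were not compared. Whether the differing bases bear on the pulldown was not tested. The first 120 coding bases are given 5′ to 3′ with capitals at the 22 bases that differ between them, from the minus strand of GRCm38 at chr5:142905567-142905686 (Actb) and chr11:120347972-120348091 (Actg1), both within a single coding exon.
Actb: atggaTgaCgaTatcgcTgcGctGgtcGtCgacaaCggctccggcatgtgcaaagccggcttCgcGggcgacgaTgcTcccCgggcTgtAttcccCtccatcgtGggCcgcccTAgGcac
Actg1: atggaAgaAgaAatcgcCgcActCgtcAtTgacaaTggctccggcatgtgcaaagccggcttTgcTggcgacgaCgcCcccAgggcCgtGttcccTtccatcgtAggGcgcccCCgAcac
Over the whole coding length of 1128 bases, 128 bases differed and 88.7% were identical. How reads that fit both actin genes, or processed copies of abundant actin, cofilin, profilin and thymosin messages, were assigned is not given in the sources used here, so the counts of these genes carry that uncertainty.

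GGACT is the commonest form of the sequence in which m6A is placed. The most depleted transcripts and the most enriched WAVE transcript are shown with their GGACT matches, in capitals, and 10 bases on either side, 5′ to 3′ on the strand of the transcript.
Tmsb10, 5′ untranslated, chr6:72958119-72958143, minus strand: ggaacgcccaGGACTgggaatgcca
Tmsb10, 3′ untranslated, chr6:72957421-72957445, minus strand: tccactaatcGGACTgccaaatttc
Tmsb4x, 5′ untranslated, chrX:167208569-167208593, minus strand: cagcattgttGGACTagagagagga
Wasf3, coding, chr5:146451976-146452000, plus strand: tcacccagctGGACTccacggtgga
These are all the matches in the longest protein-coding transcripts of these 3 genes in GENCODE M21, of 690, 864 and 5196 bases. Only the transcript strand was searched. A match is a stretch of letters and not a methylated site.

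Of the 71 genes, 57 had enough counts to be tested and 14 did not. Among the 57, 9 were called enriched and 13 depleted, or 15.8% and 22.8%, while the same calls were made for 9.43% and 17.2% of all tested genes. With an adjusted p below 0.05 as well, 5 were enriched and 11 depleted, against 3.48% and 9.78% of all tested genes. In 24 genes both RIP libraries lay above both inputs and in 17 both lay below, which held for 29.6% and 31.3% of all tested genes. The median log2 fold change of the 57 was 0.27, beside -0.05 over all tested genes, and single values ran from -5.69 to 1.80. Scaled by library size alone, 13 were enriched and 11 depleted, or 54.2% enriched of those called in place of 40.9%, and the fold changes of Pfn2 and Myo19, neither called, turned positive. The libraries are of whole dissociated retina, so that the cell types from which the recovered RNA came cannot be told apart.

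**Figure D1:**
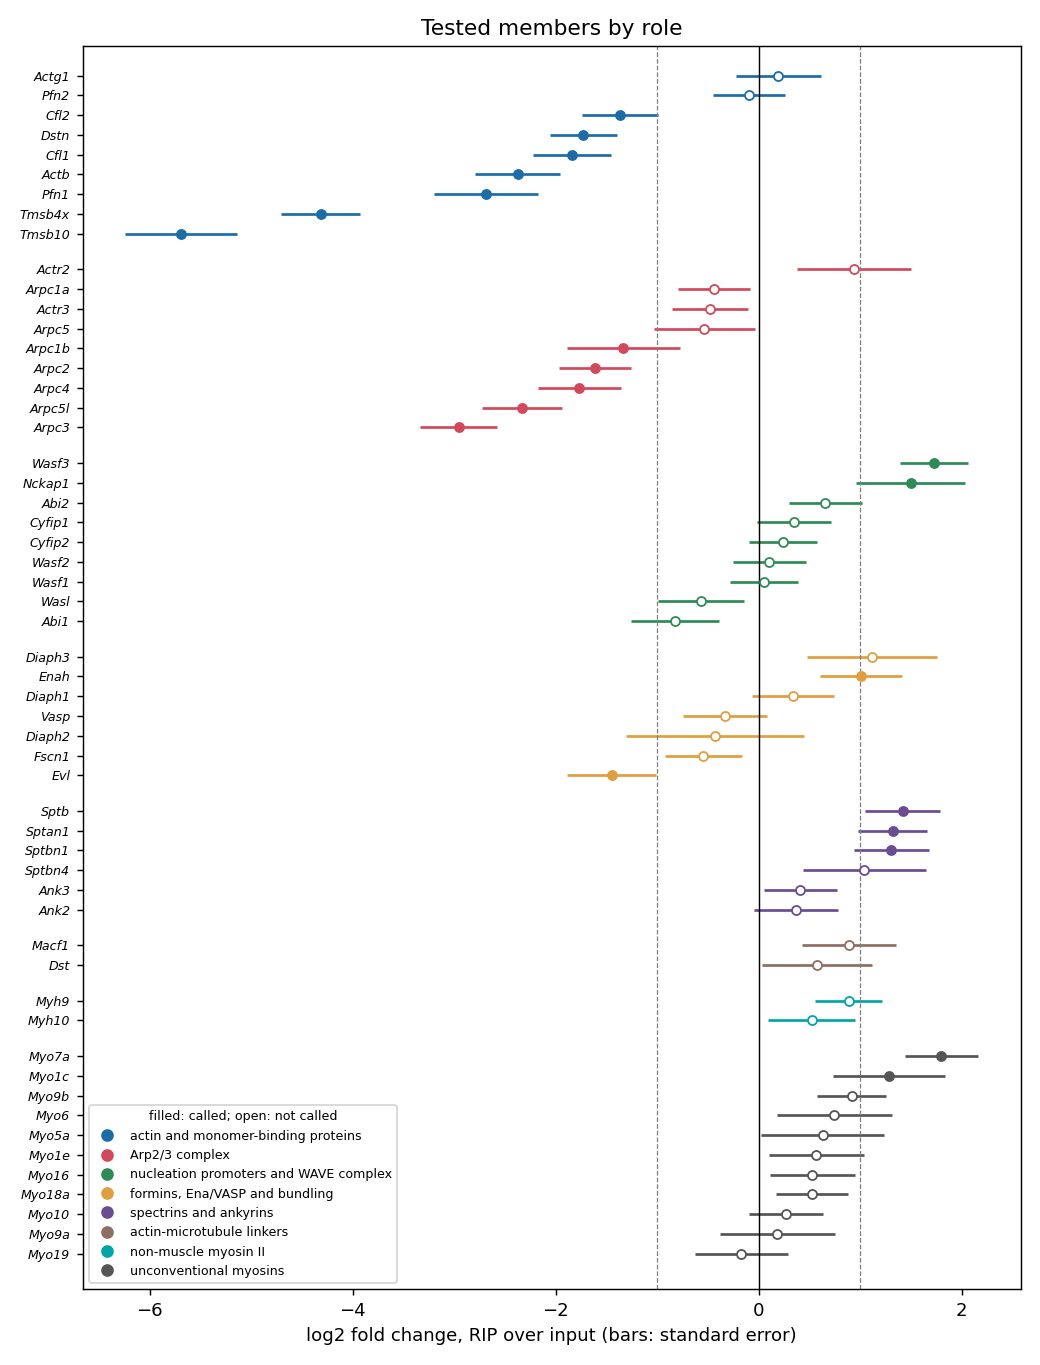
Log2 fold change of RIP over input (horizontal axis, bars show the standard error, 2 libraries per group) for 55 of the tested genes, grouped by role; filled symbols are called and open symbols are not. The 7 depleted monomer-binding and actin genes lie between -1.37 and -5.69 and the 3 enriched spectrins shown between 1.30 and 1.42.

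The total counts were 39499994 and 36236531 in inputs 1 and 2 and 19530226 and 24903212 in RIP libraries 1 and 2, of which protein-coding genes held between 2083594 and 4175459. A pair of overlapping genes annotated in part as ribosomal RNA took 55.0% to 55.5% of the input counts and 85.3% to 87.8% of the RIP counts. The inputs were less alike than the RIP libraries: the median absolute difference between replicates over the 57 genes was 0.65 (log2) for the inputs and 0.20 for the RIP libraries. Markers of retinal progenitors, ganglion cells, photoreceptor precursors and amacrine or horizontal cells were present in every library, and those of lens, pigment epithelium, skeletal muscle, fibroblasts and red blood cells had at most 14 counts in any library. Of the 8 ganglion cell markers, 2 (Sncg and Nefm) were depleted, as were 2 of 7 amacrine or horizontal markers (Tfap2b and Onecut1) and 2 of 6 progenitor markers (Sox2 and Hes1). Over all tested genes 17.2% were depleted and 9.43% enriched, so that such counts in short lists say little about a cell type. Of the 4 microglial markers, 1 (Csf1r) was enriched, while Cx3cr1 at -0.78 and C1qa at 1.80 were not called. Of the 4 endothelial markers, 1 (Kdr) was enriched, and Kdr held nearly all of their counts (997 and 1037 in the inputs against 1597 and 1564 after pulldown), while Cldn5 was at -0.28. The part of these marker values in the results below was not tested.

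Messages of the actin monomer pool were the most depleted. Of 9 genes in this group 7 were depleted, all 7 with an adjusted p below 0.05, none was enriched, and the median log2 fold change was -1.84. That is 77.8% depleted, where 17.2% of all tested genes and 27.9% of protein-coding genes under 3000 bases were. The largest fall was that of Tmsb10 (ENSMUSG00000079523, chr6:72957347-72958748), one of the small thymosins that sequester actin monomers. Its counts were 39798 and 17757 in inputs 1 and 2 but 426 and 391 in RIP libraries 1 and 2, or 1194 and 518 CPM against 16.9 and 16.3. Each RIP library thus lay far below each input, and the fold change was -5.69 ± 0.55 (SE; adjusted p = 0.00102), 51.6 times lower in the RIP. It was -4.96 without input 1 and -6.18 without input 2. Tmsb4x, the X-linked member of the same family (ENSMUSG00000049775), had 72.6 and 58.7 CPM in the inputs against 2.97 and 3.62 in the RIP libraries. Its fold change was -4.31 ± 0.39 (SE; adjusted p = 0.000926), 19.9 times lower. The ratio of Tmsb10 to Tmsb4x counts was 16.4 and 8.82 in the inputs against 5.68 and 4.49 in the RIP libraries, so that the more abundant thymosin was depleted further than the other in both replicates.

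Beta-actin fell as well. Actb (ENSMUSG00000029580, chr5:142903115-142906754) had 544 and 298 CPM in the inputs against 75.0 and 87.5 in the RIP libraries, and the groups did not overlap. The fold change was -2.37 ± 0.42 (SE; adjusted p = 0.00909). Actg1, the gamma-actin gene (ENSMUSG00000062825, chr11:120345690-120348542), was not called. It had 82.7 and 38.1 CPM in the inputs against 70.9 and 67.0 in the RIP libraries, with a fold change of 0.19 ± 0.42 (SE; adjusted p = 0.805). The RIP values of gamma-actin lie between its inputs, and its fold change was 0.86 without input 1 and -0.27 without input 2. Counts of Actb exceeded those of Actg1 by 6.58 and 7.81 times in the inputs and by 1.06 and 1.31 times in the RIP libraries, so that the actins came down in nearly equal numbers although beta-actin was far ahead in the input. The transcripts are of like length, 1920 bases for Actb and 1952 for Actg1.

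Profilins, which hand ATP-loaded monomers to growing ends, showed the same kind of contrast. Pfn1 had 36.8 and 13.8 CPM in the inputs against 3.41 and 4.45 in the RIP libraries, a fold change of -2.69 ± 0.51 (SE; adjusted p = 0.0123) that was -1.81 without input 1. Pfn2, the profilin predominant in neurons, had 87.0 and 59.4 CPM in the inputs against 65.1 and 71.7 in the RIP libraries, a fold change of -0.10 ± 0.35 (SE; adjusted p = 0.882). The Pfn1 to Pfn2 ratio was 0.423 and 0.232 in the inputs against 0.0523 and 0.0620 in the RIP libraries. Pfn1 is encoded in a transcript of 861 bases and Pfn2 in one of 2342, so that the profilins, unlike the actins, also differ in length.

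The severing proteins were depleted to a similar degree. Cfl1, the cofilin of non-muscle cells, had 263 and 181 CPM in the inputs against 71.2 and 52.7 in the RIP libraries, with a fold change of -1.84 ± 0.38 (SE). Dstn (destrin) went from 19.1 and 18.8 CPM to 5.75 and 5.65, at -1.73 ± 0.33 (SE). Cfl2, the cofilin best known from muscle, went from 7.11 and 6.85 CPM to 2.85 and 2.54, at -1.37 ± 0.37 (SE). The adjusted p of these 3 genes ran from 0.0129 to 0.0451. In none did the groups overlap, and 31.3% of all tested genes likewise lay wholly below their inputs.

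The Arp2/3 complex, which nucleates branched filaments, is built from actin-related proteins and Arpc subunits, 2 of which have alternative genes (Arpc1a or Arpc1b, Arpc5 or Arpc5l). Of the 9 genes 5, all encoding Arpc subunits, were depleted, 4 of them with an adjusted p below 0.05, none was enriched, and the median log2 fold change was -1.33. The depleted share was 55.6%, beside 17.2% of all tested genes and 27.9% of protein-coding genes under 3000 bases. The transcripts of this group run from 899 to 3631 bases, with a median of 1914. Arpc3 fell the most, from 21.9 and 16.4 CPM in the inputs to 2.26 and 2.66 in the RIP libraries (-2.96 ± 0.38, SE; adjusted p = 0.00233). Arpc5l had 430 and 322 counts in the inputs against 63 and 46 in the RIP libraries (-2.33 ± 0.40, SE). Arpc4 had 8.40 and 5.74 against 1.86 and 2.29 CPM (-1.77 ± 0.41, SE), and Arpc2 11.2 and 13.1 against 4.24 and 3.70 CPM (-1.61 ± 0.35, SE). In these 4 subunits every RIP library lay below every input, which held for 31.3% of all tested genes. Arpc1b was depleted at the unadjusted limit only, with 1.68 and 1.52 CPM in the inputs against 0.515 and 0.748 in the RIP libraries (-1.33 ± 0.55, SE; adjusted p = 0.148).

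The actin-related proteins at the core of the complex were not called. Actr2 had 4.23 and 16.5 CPM in the inputs against 18.6 and 21.1 in the RIP libraries, a fold change of 0.94 ± 0.56 (SE; adjusted p = 0.299), and Actr3 had 9.75 and 15.7 CPM in the inputs against 9.91 and 8.27 in the RIP libraries, at -0.48 ± 0.37 (SE). The Actr2 to Actr3 count ratio was 0.434 and 1.05 in the inputs against 1.88 and 2.55 in the RIP libraries, which do not overlap, although input 1 held much less Actr2 than input 2. With the replicate number as a block, Actr2 passed the limits at 1.24 (adjusted p = 0.0742) and Arpc1b no longer did, with an unadjusted p of 0.0542. The fold change of Actr2 was 0.27 without input 1 and 2.22 without input 2. Arpc1a and Arpc5 were not called, at -0.44 and -0.54.

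Reads of Arpc5l and Arpc1b may be mixed with those of neighbours on the other strand, since the strand setting of the counting is not given. The exons of Arpc5l share 62 bases with Rpl35, a ribosomal protein gene with 10328 and 5523 counts in the inputs against 110 and 150 in the RIP libraries. Those of Arpc1b share 931 bases with Pdap1, which had 3106 and 2797 input and 217 and 153 RIP counts. Both neighbours were lower in the RIP libraries, as the members were, and their part in the values of Arpc5l and Arpc1b was not tested. In all, 6 of the 22 called genes overlap an exon of a protein-coding gene on the opposite strand. On either strand, 7 of the 22 called and 13 of the 57 tested genes do, and the share over all genes was not counted. The overlap of Sptb is 1 base, and Degs2, which overlaps Evl, had at most 9 counts in any library.

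**Figure D2:**
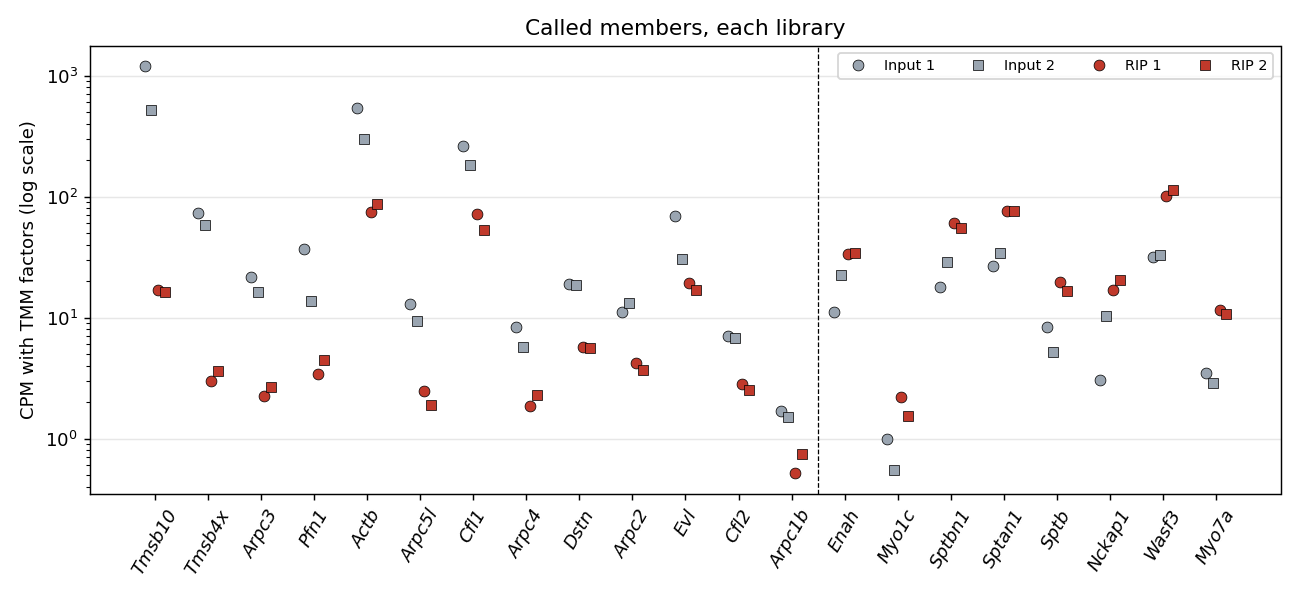
CPM with TMM factors (vertical axis, log scale) in each library for 21 of the called genes, from the most depleted on the left to the most enriched on the right; grey symbols are inputs, red symbols RIP libraries, circles replicate 1 and squares replicate 2, and the dashed line parts the 13 depleted from the 8 enriched genes shown. In every gene shown both RIP libraries lie on one side of both inputs, as for Tmsb10 (1194 and 518 against 16.9 and 16.3 CPM). Over all tested genes 29.6% lay wholly above and 31.3% wholly below their inputs.

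WAVE and N-WASP activate Arp2/3. Of 9 genes of the set that encode the WAVE complex or N-WASP, 2 were enriched, 1 of them with an adjusted p below 0.05, and none was depleted, and the median log2 fold change was 0.24. The enriched share was 22.2%, beside 9.43% of all tested genes. The transcripts of this group run from 2719 to 6659 bases. Of protein-coding genes, 13.1% were enriched from 3000 to 6000 bases and 21.6% at 6000 bases or more. Wasf3 (WAVE3; ENSMUSG00000029636, chr5:146384985-146473615) had 31.4 and 33.1 CPM in the inputs against 101 and 113 in the RIP libraries. Its replicates were close in both groups, and the fold change was 1.73 ± 0.34 (SE; adjusted p = 0.0135), or 3.31 times higher in the RIP. Nckap1, which encodes the large scaffold subunit NAP1, had 3.03 and 10.3 CPM in the inputs against 16.9 and 20.6 in the RIP libraries, a fold change of 1.496 ± 0.534 (SE; adjusted p = 0.101). The inputs of Nckap1 differ by more than its RIP libraries, and without input 1 the fold change was 0.87 and the call was lost, while with the replicate block its adjusted p was 0.00613.

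The other WAVE genes of the set stayed within the limits. Brk1, a WAVE subunit outside the set, was depleted at -1.29 and is described with the further actin genes below. Wasf1 and Wasf2 encode the remaining WAVE proteins and had fold changes of 0.05 and 0.11. Cyfip2, a subunit that keeps WAVE inactive until Rac binds, had 14.6 and 15.4 CPM in the inputs against 15.3 and 20.1 in the RIP libraries (0.24 ± 0.34, SE), and its homolog Cyfip1 had a fold change of 0.35. Abi2 and Abi1, adaptor subunits of the complex, lay on opposite sides of 0, at 0.66 and -0.83, and Wasl (N-WASP) was at -0.57. None of these passed the test. The Wasf3 to Wasf1 ratio of counts was 2.05 and 2.77 in the inputs against 6.92 and 8.26 in the RIP libraries, a rise of 3.37 and 2.98 times in replicates 1 and 2. The Abi1 to Abi2 ratio went the other way, from 0.672 and 0.740 to 0.350 and 0.180.

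Proteins that extend or bundle unbranched filaments gave 1 enriched and 1 depleted gene of 7, with a median of -0.33. Each is 14.3% of the group, beside 9.43% enriched and 17.2% depleted over all tested genes. Both called genes belong to the Ena/VASP family, which protects growing filament ends from capping. Enah (Mena) had 11.2 and 22.3 CPM in the inputs against 33.3 and 34.1 in the RIP libraries, a fold change of 1.01 ± 0.40 (SE; adjusted p = 0.137), just past the limit, and it kept its call in 6 of the 15 alternatives. Evl had 68.8 and 30.5 CPM in the inputs against 19.3 and 17.0 in the RIP libraries, a fold change of -1.45 ± 0.44 (SE; adjusted p = 0.0633) that was -0.74 without input 1. Neither survived adjustment, and the longest coding transcripts are 11229 bases for Enah and 2180 for Evl. Vasp, the third member of the family, was at -0.33, the formins Diaph1, Diaph2 and Diaph3 at 0.33, -0.43 and 1.11, and the bundling protein fascin (Fscn1) at -0.55. Diaph3 exceeded a log2 fold change of 1 without passing the test (adjusted p = 0.282), with 12 and 37 counts in the inputs against 41 and 36 in the RIP libraries.

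Spectrins and ankyrins had the largest share of enriched genes among the role groups. Of 8 spectrin and ankyrin genes 7 were tested, 4 were enriched, 3 of these with an adjusted p below 0.05, none was depleted, and all 7 had a fold change above 0 with a median of 1.30. The enriched share was 57.1%, where it was 9.43% of all tested genes and 21.6% of protein-coding genes of 6000 bases or more. Sptb, the beta chain first known from red cells, had 8.40 and 5.22 CPM in the inputs against 19.6 and 16.8 in the RIP libraries (1.42 ± 0.37, SE; adjusted p = 0.0400). Sptan1, the alpha chain that pairs with the non-erythroid beta spectrins, went from 26.7 and 34.2 CPM to 76.5 and 75.6 (1.32 ± 0.34, SE; adjusted p = 0.0375, and 0.0605 with the replicate block). Sptbn1 went from 17.9 and 28.9 CPM to 60.6 and 54.9, with an adjusted p of 0.0511 (1.30 ± 0.37, SE). Thus these 3 chains stood at 2.47 to 2.67 times their input level.

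Not every part of the membrane skeleton moved so far. Sptbn4, the beta-IV spectrin of axon initial segments, had 16 and 29 counts in the inputs against 27 and 40 in the RIP libraries, and its fold change of 1.04 ± 0.61 (SE) did not pass the test. The ankyrins Ank2 and Ank3, adaptors that anchor membrane proteins to spectrin, were at 0.37 and 0.41. Their transcripts of 14305 and 9963 bases are as long as those of the enriched spectrins, which range from 8018 to 10394 bases. Sptbn5 had no count in any library and was not tested. The linkers of actin to microtubules were not called either: Macf1 had 16.8 and 42.9 CPM in the inputs against 59.3 and 51.1 in the RIP libraries (0.89 ± 0.46, SE), and Dst had 5.73 and 20.9 against 19.1 and 20.6 CPM (0.58 ± 0.54, SE). Input 1 lay well below input 2 in both, and without input 2 their fold changes were 1.71 and 1.78, whereas without input 1 they were 0.36 and -0.07.

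Myosin transcripts lay mostly above their input level by less than the limit. The non-muscle myosin II heavy chains, which contract actin bundles, were not called: Myh9 had 11.1 and 9.97 CPM in the inputs against 20.4 and 18.4 in the RIP libraries (0.88 ± 0.33, SE; adjusted p = 0.113), and Myh10 had 13.1 and 29.3 against 33.3 and 27.5 CPM (0.52 ± 0.43, SE). Of 25 unconventional myosin genes 12 were tested, 2 were enriched and none was depleted, and the median was 0.60. The enriched share of 16.7% lay between that of all tested genes (9.43%) and that of protein-coding genes of 6000 bases or more (21.6%). Myo7a, a motor of photoreceptors and pigment epithelium whose loss causes Usher syndrome, had 3.51 and 2.86 CPM in the inputs against 11.5 and 10.6 in the RIP libraries. Its fold change of 1.80 ± 0.36 (SE; adjusted p = 0.0155) was the highest of all 57 genes. Pigment epithelium markers were at or near 0 (at most 10 counts, and 5 of 6 at 0 in every library).

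Myo1c, a short-tailed motor that links actin to membranes, was enriched at the unadjusted limit from few reads, with 33 and 19 counts in the inputs against 56 and 37 in the RIP libraries (1.28 ± 0.55, SE; adjusted p = 0.163). Myo9b, a myosin with a GTPase-activating domain, had 5.46 and 6.15 CPM in the inputs against 10.2 and 11.7 in the RIP libraries, and at 0.92 ± 0.34 (SE; adjusted p = 0.114) it stopped just short of the fold limit. Myo18a had 12.8 and 8.92 against 17.6 and 13.6 CPM (0.52 ± 0.36, SE). The others reported, Myo1e, Myo5a, Myo6, Myo9a, Myo10, Myo16 and Myo19, ran from -0.17 to 0.74 with none called. Myo5a, a cargo carrier of dendrites and melanocytes, shows the spread between replicates best: its log2 ratio of RIP to input was 2.14 in replicate 1 and -0.19 in replicate 2, since input 1 held 65 counts and input 2 held 295.

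Several calls changed when a library was left out. Without input 1, Arpc1b, Enah, Evl, Nckap1 and Sptbn1 were no longer called, and Abi1 (-1.14), Wasl (-1.005) and Myo16 (1.07) were. Without input 2, Myo1c was no longer called, and Actr2, Diaph3, Dst, Macf1, Myh10, Myo5a, Myo6 and Myo9a were among those newly called enriched, so that the enriched genes numbered 17. Arpc1b, Cfl2, Enah, Evl and Myo1c were not called without RIP library 1 nor without RIP library 2. In these fits the fold change of Cfl2 was -1.36 and -1.20. Leaving out a RIP library leaves the spread between replicates to the inputs, which were less alike. A call lost there therefore need not rest on a single library. Sptbn1 and Arpc4 in addition lost their calls without RIP library 1, and Arpc2 and Nckap1 lost theirs without RIP library 2. No called gene changed its direction. Tmsb10, Tmsb4x, Actb, Pfn1, Cfl1, Dstn, Arpc3, Arpc5l, Wasf3, Sptb, Sptan1 and Myo7a kept their calls whichever library was left out.

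The remaining 13 unconventional myosins had too few counts to test. They are Myo1a, Myo1d, Myo1f, Myo1g, Myo1h, Myo3a, Myo3b, Myo5b, Myo5c, Myo7b, Myo15, Myo15b and Myo18b, with at most 9 counts in any library. The list includes the stereocilia and hair-bundle motors Myo3a, Myo3b and Myo15 and the blood-cell myosins Myo1f and Myo1g, and for these no difference was detectable at this depth.

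**Figure D3:**
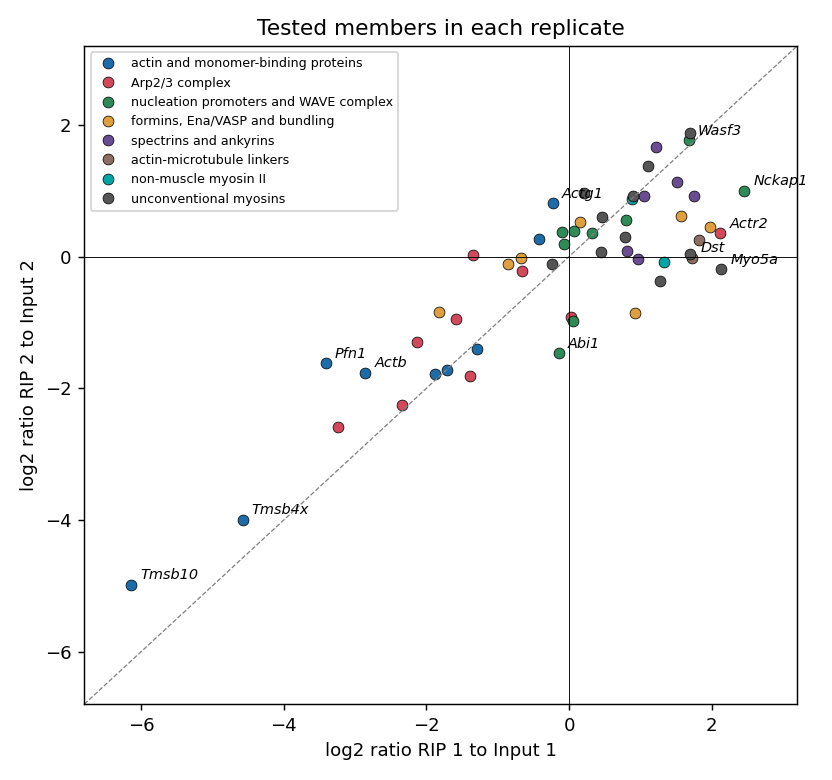
Log2 ratio of RIP to input in replicate 1 (horizontal axis) and replicate 2 (vertical axis) for 55 of the tested genes, coloured by role, with equality as the dashed line. The thymosins and Actb are low in both replicates, whereas Actr2 (2.12 and 0.36), Dst (1.72 and -0.02) and Myo5a (2.14 and -0.19) are high in replicate 1 only.

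The makeup of the actin messages differed between input and RIP libraries. Tmsb10, Actb and Cfl1 together held 71.5% and 56.2% of all counts on the 71 genes in the inputs but 14.8% and 14.3% in the RIP libraries. In the authors' FPKM, the order of levels differed as well. FPKM divides by the authors' gene length, which need not equal the transcript lengths given here, so the order holds for FPKM only. In the inputs Tmsb10 led with 754 and 369.9 FPKM, before Actb (163 and 101), Cfl1 (89.7 and 70.0) and Tmsb4x (42.6 and 39.0). In the RIP libraries Actb (33.3 and 29.0 FPKM), Cfl1 (36.0 and 19.9), Actg1 (31.7 and 22.4), Wasf3 (23.1 and 19.4) and Pfn2 (21.8 and 18.0) led. Each of these overlapped with the next in this order, while Actb lay above Wasf3 and Pfn2 in both libraries. Tmsb10 came next with 15.8 and 11.3 FPKM. Wasf3 had stood at only 4.86 and 5.80 FPKM in the inputs.

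Comparing close relatives within a library does not depend on how libraries are scaled. For 14 pairs of related genes, picked after their values were seen and therefore described without a test, the count ratio of one to the other did not overlap between input and RIP libraries in 9 pairs and overlapped in 5. Such separation is common with 2 libraries in each group, since 29.6% and 31.3% of single tested genes lay wholly above or below their inputs. The 9 were Actb/Actg1, Pfn1/Pfn2, Tmsb10/Tmsb4x, Cfl1/Cfl2, Actr2/Actr3, Arpc1a/Arpc1b, Arpc5/Arpc5l, Wasf3/Wasf1 and Abi1/Abi2. The widest shift was that of the actins, whose ratio was 6.22 and 5.98 times higher in input than in RIP in replicates 1 and 2, together with that of the profilins, at 8.08 and 3.74 times. The narrowest was that of the cofilins, at 1.48 and 1.27 times. The overlapping pairs were Cyfip1/Cyfip2, Ank2/Ank3, Macf1/Dst, Myh9/Myh10 and Myo9a/Myo9b, all between long messages.

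**Figure D4:**
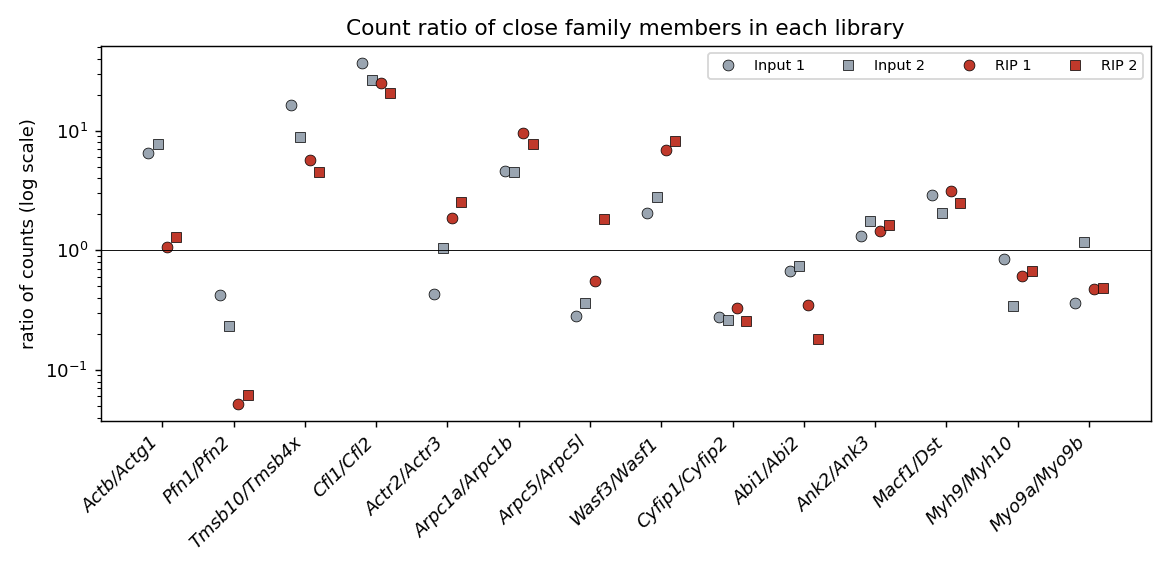
Ratio of the counts of 2 related genes (vertical axis, log scale) in each library for 14 pairs; grey symbols are inputs, red symbols RIP libraries, circles replicate 1 and squares replicate 2. The ratio of Actb to Actg1 drops from 6.58 and 7.81 in the inputs to 1.06 and 1.31 in the RIP libraries, and that of Wasf3 to Wasf1 rises from 2.05 and 2.77 to 6.92 and 8.26.

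The depleted genes have short transcripts and the enriched ones long transcripts. Across the 57 genes the log2 fold change had a Spearman rho of 0.733 with the length of the longest protein-coding transcript (0.800 in replicate 1 and 0.575 in replicate 2), and across 11953 tested protein-coding genes it was 0.487 (0.580 and 0.312). These values describe genes of the same 4 libraries, which are not independent points. Of the 20 genes under 3000 bases, 12 were depleted and none enriched, or 60% depleted where 27.9% of the 5149 protein-coding genes of that length were. From 3000 to 6000 bases, 3 of 14 were enriched and 1 was depleted (21.4% and 7.14%), where 13.1% and 5.18% of 4939 protein-coding genes were. At 6000 bases or more, 6 of 23 were enriched (26.1%) and none depleted, where 21.6% of 1865 protein-coding genes were enriched. With GC content the rho over the 57 genes was 0.034, but it was -0.250 in replicate 1 and 0.266 in replicate 2.

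A smooth trend on transcript length over all tested genes was then taken out of each library. After this, 12 of the 57 genes were still depleted and 4 were still enriched. With an adjusted p below 0.05 as well, 5 were depleted in place of 11 and 1 was enriched in place of 5. The rho with transcript length over the 57 genes was still 0.501, so this step did not remove the relation to length within the set. Wasf3, Myo7a and Nckap1 kept their calls at 1.34, 1.20 and 1.24. Sptb, Sptan1, Sptbn1, Enah and Myo1c lost theirs, at 0.43 to 0.93, as did Arpc2 at -0.81. Actb stood at -1.86 and Tmsb10 at -3.93, and Actg1 at 0.69 was not called. The ankyrins Ank2 and Ank3 turned to -0.25 and -0.19. The median over the 57 genes turned from 0.27 to -0.10.

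**Figure D5:**
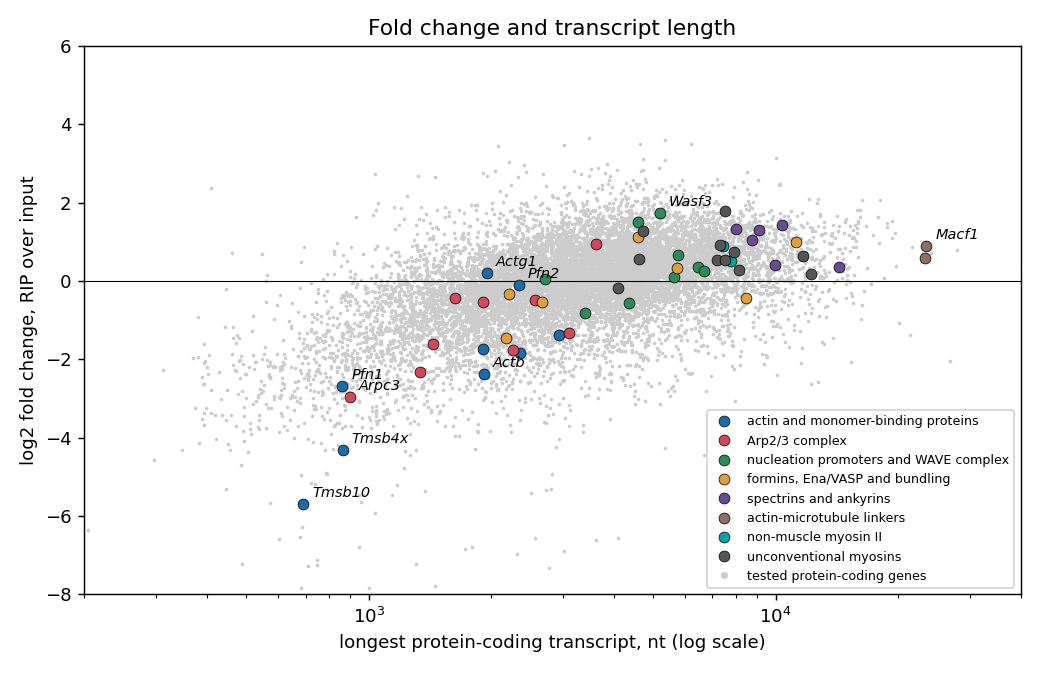
Log2 fold change of RIP over input (vertical axis) against the length of the longest protein-coding transcript in bases (horizontal axis, log scale) for 55 of the tested genes, coloured by role, over 11953 tested protein-coding genes in grey, of which 23 fall outside the axes. The short thymosin messages of 690 and 864 bases lie lowest, and Actb (1920 bases) lies at -2.37 where Actg1 (1952 bases) lies at 0.19.

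GGACT was present in nearly all of these genes, enriched or depleted. It occurred on the transcript strand in 56 of the 57 genes (98.2%) and in 93.1% of tested protein-coding genes, with a median of 1.07 and 1.04 matches per kb. Across the 57 genes the log2 fold change had a rho of -0.251 with the density of matches, and across the protein-coding genes one of 0.0752. Tmsb10 held 2 matches in 690 bases and Wasf3 held 1 in 5196, as shown above, while Wasf1 was the gene without a match. Actb held 4 matches and Actg1 held 2. These letters are counts of a motif and carry no measure of methylation. They were counted in the longest protein-coding transcript, which was not shown to be the form expressed. Tmsb10 and Tmsb4x have 4 and 3 annotated transcripts, and their shorter forms were not searched.

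A further 107 genes of the actin cytoskeleton were listed to set these results in context. Of 93 tested, 11 were enriched and 10 depleted (11.8% and 10.8%, beside 9.43% and 17.2% of all tested genes), 5 and 6 of them with an adjusted p below 0.05, and their median was 0.30. Scaled by library size alone, 17 were enriched and 7 depleted, and on log2(FPKM + 1) 1 and 6. Among those with an adjusted p below 0.05, the largest falls were those of Myl12a and Myl12b, the regulatory light chains of non-muscle myosin II, at -2.97 and -1.68, of Gap43, the growth cone protein, at -2.29, of Capzb, the beta subunit of capping protein, at -1.89, and of the tropomyosin Tpm3 at -1.75. The largest rises among them were those of Add2, an adducin that joins spectrin to actin, at 1.80, of the myosin light chain kinase Mylk at 1.67 and of the formin Fhod3 at 1.66. The adjusted p of these 8 genes ran from 0.0023 to 0.0361. In Myl12a the inputs had 28.6 and 20.9 CPM and the RIP libraries 2.85 and 3.45, and in Add2 the inputs had 5.22 and 2.91 and the RIP libraries 13.5 and 14.8, with no overlap in either. Myl6, the essential light chain of myosin II, was not called, at -0.67, and neither were the heavy chains Myh9 and Myh10. Brk1, the smallest subunit of the WAVE complex and singled out here after its value was seen, fell at -1.29 (adjusted p = 0.0467), with a transcript of 1095 bases.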

How the data were processed

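RNA of 2 input and 2 anti-YTHDF2 RIP libraries of P0 retina was sequenced with a stranded kit. The authors deposited raw counts per gene, whole numbers that are not normalized or pooled, and FPKM values, in which the authors divided by gene length and library size. The submitters' processing notes name STAR 2.5, HTSeq and GRCm38; the annotation, strand setting and treatment of reads with several hits are not given in the sources used here. The number of unused columns of sample values was 0. Total counts ranged from 19530226 to 39499994.

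The main test was edgeR 4.0.16 in R 4.3.3 (filterByExpr with a minimum count of 10 and minimum total of 15, TMM, glmQLFit, glmQLFTest) over all genes and all 4 libraries, with Benjamini-Hochberg adjustment. Standard errors were derived from the fold change and its F statistic. Positions, transcript lengths and sequences were taken from GENCODE M21 (GRCm38), where 52403 of 52550 identifiers were found, and the longest protein-coding transcript stood for each gene. The design text gives each replicate its own input and pulldown, so equal numbers mark a pair. The differences between inputs and between RIP libraries, replicate 2 minus 1, correlated at a Spearman rho of -0.032 over all tested genes and 0.101 over the 57 tested genes of the set. Named with values in every library are each called gene and the 2 most abundant tested genes per role. Other genes of the set were named after their values were seen. Further actin genes are named if the adjusted p is below 0.05, at most 8 by size of change, with Brk1 and Myl6 outside this rule. The genes, gene lists, limits and tests were chosen with earlier results of these data known. The 15 alternatives were other scalings, filters, DESeq2 1.42.0, limma 3.58.1 on FPKM (mean of 0.1 or more) after log2 with a pseudocount of 0.1 or 1, a replicate block, a length trend taken out with and without the block, and each library left out. The test across genes was checked on simulated data. Some genes of the set enter the counts and medians but are not reported here by name or drawn in the plots.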

Additional observations from a re-analysis of the deposited data

How the results depend on the processing

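No called gene of the set changed sign under any of the 15 alternatives, and the 13 depleted genes numbered 9 to 13 throughout. The 9 enriched genes numbered 4 with the length trend taken out, 5 with it taken out under the replicate block, 5 on log2(FPKM + 1), and 6 to 17 with a library left out (17 without input 2). The 5 enriched with an adjusted p below 0.05 numbered 3 with no filter on low counts, 1 with the length trend taken out, 3 with the length trend taken out under the block, and 0 to 17 with a library left out. Without RIP library 1 or RIP library 2 none of the set was enriched at this adjusted limit by edgeR, with 6 at the unadjusted limit. The 11 depleted with an adjusted p below 0.05 numbered 7 with scaling by library size alone, 5 with the length trend taken out and 2 to 13 with a library left out (2 without either RIP library). The 11 enriched other actin genes numbered 17 with library size alone, 5 and 6 with the length trend taken out without and with the block, 1 on log2(FPKM + 1) and 5 to 20 with a library left out. Their 10 depleted genes numbered 6 on log2(FPKM + 1) and 4 to 11 with a library left out. The median of the set was 0.61 with library size alone, which also moved the median of all tested genes from -0.05 to 0.27 and the enriched share of all calls from 35.4% to 57.7% (in the set from 40.9% to 54.2%). It was -0.10 and -0.027 with the length trend taken out without and with the block, 0.48 on log2(FPKM + 0.1), and 0.12 to 0.43 with a library left out. The rho with transcript length was 0.504 with no filter and 0.512 with DESeq2, both over 67 genes in place of 57, 0.501 and 0.521 with the length trend taken out without and with the block, and 0.598 to 0.796 with a library left out. With the length trend taken out, 12 genes of the set changed sign, and 11 did so under the block, none of them called. Among them Cyfip2 turned to -0.27, Ank2 to -0.25 and Ank3 to -0.19, each with or without the block. Myo18a turned to -0.10 without the block and -0.016 with it. Without input 1, 5 genes changed sign, among them Dst at -0.074, where its value without input 2 was 1.78. Without input 2, 6 genes changed sign, among them Actg1 at -0.27. Fewer libraries, or more genes, enter by construction where a library is left out or no filter is set. For the other settings the cause was not tested.

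With the replicate number as a block, 10 genes were enriched and 12 depleted, as Actr2 was gained and Arpc1b lost, 5 and 11 had an adjusted p below 0.05, the median was 0.34 and the rho 0.746. At the adjusted limit Nckap1 was gained (adjusted p = 0.00613) and Sptan1 lost (0.0605), and the block changed no other call in the set at either limit. Over all genes, enriched transcripts with an adjusted p below 0.05 rose from 474 to 721 under the block. Leaving out an input leaves 1 library in that group, which is assumed to vary like the RIP libraries. Leaving out a RIP library leaves 1 in that group, which is assumed to vary like the inputs, and these were less alike. Few counts limit Myo1c, Arpc1b, Diaph2, Diaph3 and Sptbn4.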
